A study of Mus musculus with 10 samples.

Results

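Sites were analysed at which EZH2 and H3K27me3 were both found in control mouse ES cells and at which the EZH2 domain was not called in ex14D-Ezh2 cells. ChIP-seq was carried out with antibodies against H3K27me3 and EZH2 in E14 Embryonic Stem Cells, either wild-type (control) or with exon 14 of Ezh2 disrupted by CRISPR-Cas9 so that, per the study's methods, the EZH2 isoform lacking this exon (ex14D) is the functional one. Both genotypes are of the strain labelled 12910la, neither was treated, and each had 2 libraries per antibody and 1 input library, 10 in all. The label of the mutant samples calls them a knock out of exon 14, and whether the 2 libraries of a genotype came from separate cultures or from separate mutant lines is not given in the sources used here, so p-values measure the spread between these libraries, which may be technical. Of 5001 EZH2 domains on chromosomes 1 to 19 in control replicate 1, 4917 overlapped a domain of control replicate 2 and 4590 of these also overlapped an H3K27me3 peak in both control libraries. Of these 4590 marked domains, 1153 (25.1%, exact 95% binomial interval 23.9 to 26.4) overlapped no EZH2 domain in either ex14D library and are called lost domains here. The other 3437, called kept domains, overlapped an EZH2 domain in ex14D, 2814 of them in both libraries and 623 in 1. An overlap of 1 bp was enough at each step. The interval covers counting error only, and the number moved more with the rule, to 2053 without control EZH2 replicate 1 and to 486 with peaks of −log10 q of at least 3. The lost domains were thus chosen by EZH2 domain calls of both genotypes and by control H3K27me3 peaks, whose values are given as a description, whereas the ex14D H3K27me3 libraries had no part in the choice.

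EZH2 is the catalytic subunit of Polycomb repressive complex 2 (PRC2), which places methyl groups on lysine 27 of histone H3. The trimethylated form, H3K27me3, is found over promoters of silent developmental genes in ES cells, where PRC2 itself is recruited mainly to CpG islands. PRC2 can also bind the mark it has made through its subunit EED, which helps the mark to be maintained and spread.

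H3K27me3 reads in promoter windows numbered 594289 and 937207 for control and 1450937 and 1248018 for ex14D, and replicates were further apart than sampling alone gives (chi-square over its degrees of freedom, 2.31 for control and 1.95 for ex14D). The number of EZH2 domains on chromosomes 1 to 19 was 5001 and 6802 for control and 3458 and 3335 for ex14D, and H3K27me3 peaks there numbered 12100 and 19639 in control and 14131 and 9233 in ex14D. All 10 promoters of a list of lineage genes that Polycomb holds silent in ES cells, among them T, Gata4 and Pax6, had an EZH2 domain and an H3K27me3 peak in both control libraries. Among 10 ES cell genes, Pou5f1 and Nanog included, only Klf4 had both. In these bulk libraries, a mark in fewer cells and less of the mark in every cell cannot be told apart.

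The sequence of the lost domains differed with what happened to H3K27me3. Short stretches of 5 lost domains are shown to make this visible, 2 from domains with no H3K27me3 peak in ex14D and 3 from domains with a peak in both ex14D libraries. In each group these are among the 3 domains over a promoter whose CpG density lay nearest the group's median. Each stretch is the 200 bases nearest the domain's centre that overlap no annotated exon, read from the RefSeq genome of GRCm38 on the forward strand, with every CG in capitals. The first 2 lie in introns of Gphn (gephyrin, an anchor of inhibitory receptors at synapses) and Rcor1 (a corepressor that partners a histone demethylase).
Gphn, intron, chr12:78226901-78227100: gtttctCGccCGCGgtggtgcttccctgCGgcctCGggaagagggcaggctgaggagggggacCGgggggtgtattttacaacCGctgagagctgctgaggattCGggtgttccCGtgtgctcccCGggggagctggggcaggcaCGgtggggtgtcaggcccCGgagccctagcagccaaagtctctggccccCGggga
Rcor1, intron, chr12:111040031-111040230: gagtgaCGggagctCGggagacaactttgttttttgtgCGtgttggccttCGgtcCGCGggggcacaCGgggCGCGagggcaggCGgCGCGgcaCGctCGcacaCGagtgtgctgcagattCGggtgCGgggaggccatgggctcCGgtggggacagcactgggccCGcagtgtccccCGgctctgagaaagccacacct
They hold 13 and 20 CG dinucleotides. The domains they come from have 86.5 and 85.0 CpG per kb. The next 3, from domains that kept the peak, lie before the start of Gdf11 (a ligand of the TGF-beta family) and in introns of Scin (an actin-severing protein) and Fam171b.
Gdf11, 183 bases before the start, chr10:128891901-128892100: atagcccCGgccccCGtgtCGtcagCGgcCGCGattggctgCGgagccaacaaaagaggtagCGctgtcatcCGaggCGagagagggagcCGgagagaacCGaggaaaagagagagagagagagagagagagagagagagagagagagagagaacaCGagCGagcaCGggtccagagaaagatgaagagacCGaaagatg
Scin, intron, chr12:40133701-40133900: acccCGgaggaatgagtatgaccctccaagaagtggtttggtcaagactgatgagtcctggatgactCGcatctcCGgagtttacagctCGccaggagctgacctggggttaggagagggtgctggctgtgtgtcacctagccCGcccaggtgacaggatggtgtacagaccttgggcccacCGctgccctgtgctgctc
Fam171b, intron, chr2:83812981-83813180: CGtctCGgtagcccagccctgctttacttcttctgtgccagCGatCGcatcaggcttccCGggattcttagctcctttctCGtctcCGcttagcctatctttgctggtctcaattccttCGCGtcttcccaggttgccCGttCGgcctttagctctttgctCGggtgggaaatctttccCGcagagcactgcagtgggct
They hold 16, 6 and 13 CG, and each of their domains has 39.0 CpG per kb. Single stretches overlap between the groups, and Gdf11 has more CG than Gphn. Over all lost domains in which such a stretch could be placed, the median was 15 CG in the 60 domains with no ex14D peak and 7 CG in the 838 domains with a peak in both. At least 10 CG were found in 73.3% and 35.9% of these stretches and in 42.3% of those of all marked domains. The motif searched was CG, which reads the same on both strands.

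Lost domains were narrow. Their median width was 2000 bp, against 3000 bp for kept domains, and hiddenDomains placed all of them on a grid of 1000 bp. Of the 1153, 498 were 1 kb wide and 503 were 2 kb wide, and 13.2% were 3 kb or wider, compared with 68.3% of kept domains. An overlap of 1 bp made a domain kept, so wide domains had more room to be kept by the rule itself. The size of that part was not tested. All lost domains covered 2.04 Mb. A promoter, taken as 1 kb around the start of a counted gene, lay in 62.4% of them. The others were placed by their midpoint, which lay in an exon for 13.8%, in an intron for 13.4% and between genes for 10.3%. For kept domains the share with a promoter was 76.8%. They were spread over the autosomes. Of the marked domains of a chromosome, between 20% and 30.2% were lost. H3K27me3 peaks over lost domains were narrower than those over kept domains already in control cells, with a median of 2538 bp against 5094 bp in replicate 1 and 4140 bp against 6760 bp in replicate 2.

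Most lost domains were far from the remaining EZH2. The median distance to the nearest ex14D EZH2 domain was 115000 bp, 65 lost domains lay within 5000 bp of one, and 5 had an ex14D domain ending at their edge. Those just inside the limit of the rule were a 1 kb domain near Mir6934 (chr11:119156001-119157000), a 4 kb domain near Hes1 (chr16:30066001-30070000), a Notch target gene, and a 7 kb domain near Khdrbs1 (chr4:129747001-129754000), each abutting an ex14D domain and each with H3K27me3 peaks in both ex14D libraries. By bp of overlap, the kept domains nearest the limit were 615 that an ex14D domain overlapped by 1000 bp. Examples were a 4 kb domain over the promoter of Xkr4 (chr1:3670001-3674000) and a 1 kb domain over Fam150a (chr1:6359001-6360000). Another was a 2 kb domain (chr1:4571001-4573000) that lay 73647 bp from the nearest gene start, that of Sox17. All 3 had peaks in both ex14D libraries. The 1 kb domain over Fam150a was overlapped over its whole length, so 1000 bp is a small overlap only in wider domains.

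The H3K27me3 peak was still called at most lost domains. In ex14D replicate 1, 1069 of the 1153 lost domains (92.7%, exact 95% binomial interval 91.1 to 94.1) overlapped a peak, and in ex14D replicate 2 it was 936 (81.2%, 78.8 to 83.4). In both libraries it was 930 (80.7%, 78.3 to 82.9). A peak was found in replicate 1 only at 139 lost domains, in replicate 2 only at 6, and in neither at 78 (6.76%, 5.38 to 8.37). The replicate with fewer peaks in total, replicate 2, was also the one with fewer at lost domains. Whether peak calling had a part in this was not tested. Kept domains had a peak in 99.4% of cases in replicate 1, 98.2% in replicate 2 and 98.0% in both, and 15 of 3437 had none. The share with a peak in both was thus 17.4 percentage points lower for lost than for kept domains. Kept domains called in only 1 ex14D EZH2 library lay between, with a peak in both H3K27me3 libraries at 570 of 623 (91.5%), and those called in both EZH2 libraries had 99.5%. The intervals cover counting error over domains only, since domains of one library are not replicates, and no test of this difference was made, since an exact permutation test of 2 values against 2 cannot go below p = 0.33. The share depended on the overlap that was asked for. Where ex14D peaks had to cover at least 50% of the domain, 61.2% of lost and 93.3% of kept domains had one in both libraries. Few retained peaks reached a place where EZH2 was still called. Of the lost domains with a peak, 48 of 1069 in replicate 1 (4.49%) and 36 of 936 in replicate 2 (3.85%) had one that also overlapped an ex14D EZH2 domain.

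**Figure D1:**
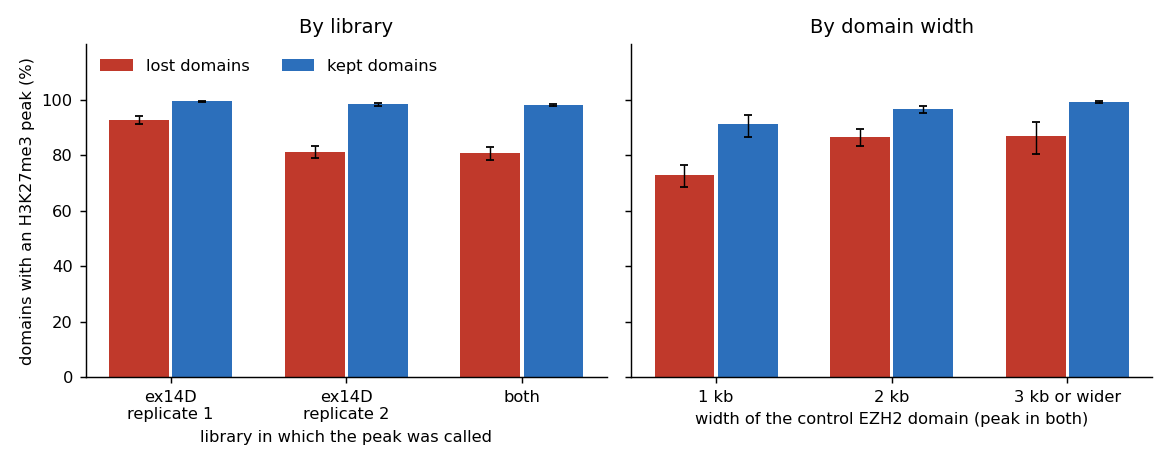
Share of lost and kept EZH2 domains that overlapped an H3K27me3 peak in ex14D cells, by library (left) and by width of the control domain for a peak in both libraries (right). Bars are percentages of domains and whiskers exact 95% binomial intervals, and lost domains stand below kept domains in every pair, at 80.7% against 98.0% for both libraries.

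Narrow lost domains kept the peak less often than wide ones, and at each width the share was below that of kept domains. Among 1 kb domains, 72.7% of 498 lost domains and 91.1% of 213 kept domains had a peak in both ex14D libraries. At 2 kb the shares were 86.7% and 96.6%, and at 3 kb or wider 86.8% and 99.2%. By position, the share among lost domains was 76.1% at promoters and, by midpoint, 83.0% in exons, 89.7% in introns and 93.3% between genes. Among kept domains these shares were 98.3%, 97.5%, 96.6% and 97.7%.

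Domains without an ex14D peak were rich in CpG, kept as well as lost ones. The median CpG density was 86.8 per kb in the 78 domains with a peak in neither ex14D library, 57.5 per kb in the 145 with a peak in 1 and 39.0 per kb in the 930 with a peak in both, compared with 41.0 per kb in all kept domains. Kept domains had the same order, with 73.0 per kb in the 15 with no peak, 58.0 per kb in the 53 with a peak in 1 library and 41.0 per kb in the 3369 with a peak in both. In the lost domains, the ratio of observed to expected CpG had medians of 0.83, 0.67 and 0.52, and GC content of 65.6%, 60.4% and 55.8%. Of the 78, 85.9% lay over a promoter, compared with 58.9% of the 930 and with 86.7% of the 15 kept domains without a peak.

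**Figure D2:**
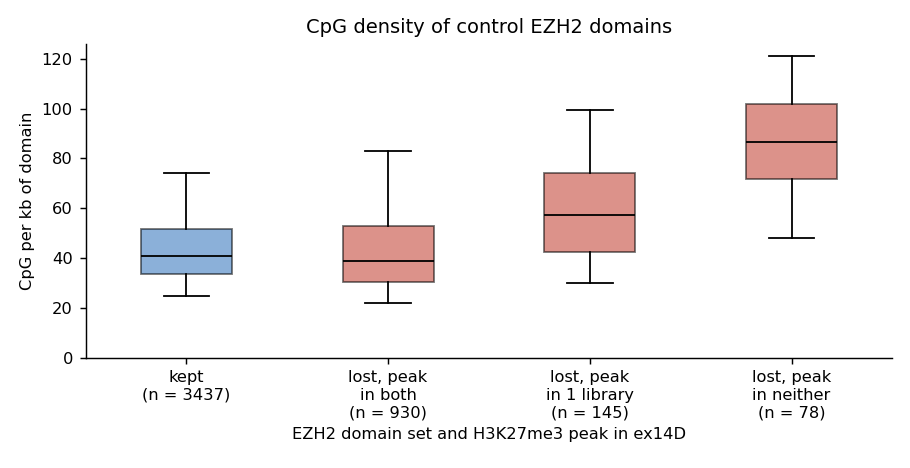
CpG dinucleotides per kb of domain (vertical axis) in kept domains and in lost domains with an H3K27me3 peak in both, 1 or neither of the ex14D libraries. Boxes give quartiles with the median as a line and whiskers the 5th and 95th percentiles, and the median of lost domains moves from 39.0 to 57.5 to 86.8 as fewer libraries have a peak.

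Read counts at promoters are a further measure from the same H3K27me3 libraries. They are not independent of the rule, which asked for a peak in both control libraries and so chose the control side of each fold change. The same was asked of lost and kept domains, but its effect need not be equal. Lost promoters had lower control levels, with medians of 60.9 and 74.4 CPM against 155 and 164 CPM. How much this choice moved the fold changes of each set was not tested. The p-values and the contrasts of lost with kept promoters below are to be read with these limits. Counts in 1 kb windows were compared between ex14D and control by the quasi-likelihood test of edgeR. P-values were adjusted by Benjamini-Hochberg over the 14883 promoters left by its filter on low counts. Levels are given as CPM, the reads of a window scaled to a common library size by TMM. Lower and higher are thus relative to the other promoters of a library, and a change of H3K27me3 common to all promoters would not appear in these values. The promoters of 759 genes overlapped a lost domain, and 723 of them were tested. In ex14D, 101 of the 723 (14%) were lower and 5 (0.69%) were higher at an adjusted p below 0.05, where 3.19% of all promoters tested were lower and 5.85% were higher. Of the 2909 tested promoters of kept domains, 116 were lower and 761 were higher. The 425 of these in a domain called in only 1 ex14D EZH2 library were nearer to the lost promoters, with 36 lower, 6 higher and a median log2 fold change of -0.11, while those called in both held 755 of the 761 higher ones. The median log2 fold change was -0.33 at promoters of lost domains, 0.31 at those of kept domains and -0.02 over all promoters. It was negative at 74.6% of promoters of lost domains. Both ex14D libraries were below both control libraries at 360 of the 723 (49.8%), where 25.8% of all promoters tested showed this. At all 101 lower promoters the 2 groups of libraries did not overlap. The count of lower promoters rested on having both libraries of a genotype. The median over lost promoters was -0.42 without control replicate 1 and -0.24 without control replicate 2. It was -0.46 without ex14D replicate 1 and -0.22 without ex14D replicate 2. The log2 fold change of all 101 stayed negative in each of these fits. Since the 2 groups did not overlap at these promoters, leaving out 1 library could hardly turn the sign, so this does not show that the calls are stable. Where libraries were scaled by their total alone, the median of all promoters moved to -0.47, that of kept promoters to -0.14 and that of lost promoters to -0.78. In that fit 294 lost promoters (40.7%) were lower and 0 higher, where 14.6% of all promoters tested were lower, and kept promoters had 443 lower and 371 higher. At an unadjusted p below 0.05, 1 lost promoter was higher with edgeR there. The direction at kept promoters thus turns with the scaling, whereas lost promoters lay below them in both.

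**Figure D3:**
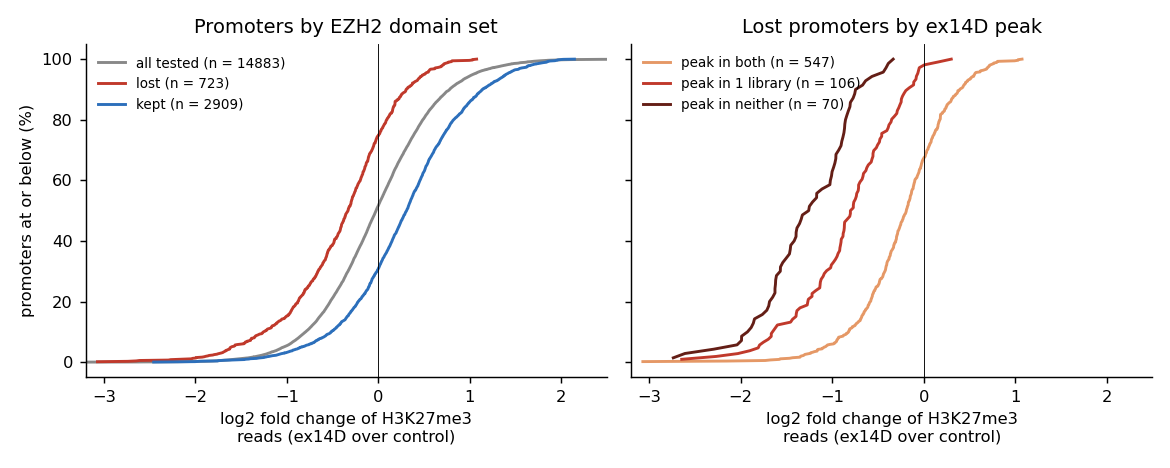
Cumulative share of promoters (vertical axis, %) at or below a log2 fold change of H3K27me3 reads, ex14D over control (horizontal axis). On the left, lost promoters (median -0.33) lie to the left of all tested promoters and kept promoters (median 0.31) to the right; on the right, lost promoters are divided by the number of ex14D libraries with a peak, with medians of -0.19, -0.79 and -1.25.

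The levels behind these changes were low. The median lost promoter had 60.9 and 74.4 CPM in control and 61.9 and 51.7 CPM in ex14D, so that ex14D replicate 1 lay between the 2 control libraries. The median kept promoter had 155 and 164 CPM in control and 192 and 175 CPM in ex14D. Inputs were scaled by their counted reads alone, without TMM, so their CPM cannot be set beside those of H3K27me3. The input medians of lost and kept promoters were alike, 48.9 and 46.4 CPM in control and 50.4 and 48.0 CPM in ex14D. Over all promoters tested the input medians were 48.9 CPM in control and 48.0 CPM in ex14D. At the 70 tested lost promoters with no ex14D peak, the H3K27me3 median was 38.9 and 33.9 CPM in control and 14.9 and 13.9 CPM in ex14D. These ex14D values were near the 16.5 and 16.9 CPM of all promoters in ex14D. These 70 had a median log2 fold change of -1.25 with 35 lower and 0 higher, and at an unadjusted p below 0.05 there were 60 lower and 0 higher. The 106 with a peak in 1 ex14D library had a median of -0.79 with 31 lower, and the 547 with a peak in both had a median of -0.19 with 35 lower and 5 higher. Kept promoters without a peak had like values, with a median of -1.29 and 8 of 11 lower, and those with a peak in 1 library had a median of -0.55 and 11 of 32 lower. Peaks and counts come from the same reads, so their agreement is not independent.

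Because lost promoters had less H3K27me3 in control, they were also compared with kept promoters of a like level. The level is the mean of the same control libraries that enter each fold change and whose peaks the rule used. Sets that differ in control level can therefore differ in fold change within a range for this reason alone. The size of that part was not tested. Among promoters with a control mean below 50 CPM, the median log2 fold change was -0.57 at 199 lost and 0.13 at 271 kept promoters, and 49.7% and 91.9% of them had a peak in both ex14D libraries. From 50 to 100 CPM the medians were -0.26 at 366 lost and 0.00 at 493 kept promoters, with 81.4% and 96.1% in a domain with both peaks. From 100 to 200 CPM they were -0.30 at 152 and 0.16 at 1062 promoters. At 200 CPM or more there were 6 lost promoters, with a median of -0.24, and 1083 kept ones, with a median of 0.63. The same comparison was made by CpG density of the window. With fewer than 40 CpG per kb the median was -0.12 at 132 lost and 0.32 at 377 kept promoters. From 40 to 80 it was -0.26 at 373 lost and 0.33 at 1443 kept promoters. At 80 CpG per kb or more it was -0.69 at 218 lost and 0.23 at 1089 kept promoters. Promoters with no EZH2 domain and no H3K27me3 peak in any library had medians of -0.06 (6213 promoters), 0.13 (1490 promoters) and -0.01 (549 promoters) in these 3 ranges. In the range richest in CpG, 56 of 218 lost promoters were lower and 1 was higher, where 77 of 1089 kept promoters were lower and 276 higher and 7 of the 549 unmarked promoters were lower and 8 higher.

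The sums over promoters gave the same order without any scaling. For each H3K27me3 read at kept promoters, lost promoters had 0.0881 and 0.102 reads in control and 0.0546 and 0.0465 in ex14D. The mean was 0.0951 ± 0.00999 in control and 0.0506 ± 0.00572 in ex14D (SD, n = 2), a ratio of 0.532, with both ex14D libraries below both control libraries. An exact permutation test (two-sided) gave p = 0.33, the smallest that 2 libraries against 2 allow. The inputs had 0.256 and 0.272.

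The 5 largest falls among lost promoters were at Gjc1, Rfx2, Sall1, Bnc2 and Klf2. Gjc1 encodes the gap junction protein connexin 45, and its promoter had 120 and 38.6 CPM in control and 9.91 and 7.96 CPM in ex14D. This was a log2 fold change of -3.07 ± 0.47 (SE, adjusted p = 6.0e-05), and of -2.13 without control replicate 1, the higher of its control libraries, where it still passed. A peak was still called in both ex14D libraries over its 3 kb domain (chr11:102817001-102820000), which reaches beyond the counted window. At Rfx2, a transcription factor of cilium genes, the 89.9 and 58.4 CPM of the control libraries were followed by 10.7 and 10.9 CPM in ex14D, with no peak left (chr17:56829001-56831000). Its log2 fold change was -2.74 ± 0.38 (SE, adjusted p = 2.3e-05), and both control libraries were well above both ex14D libraries. The other 3, like Gjc1, had one high control library. Sall1, a zinc finger factor of kidney and limb development, had 233 and 31.1 CPM in control and 24.0 and 15.9 CPM in ex14D. Bnc2, a zinc finger protein, had 122 and 24.5 CPM in control and 12.4 and 9.95 CPM in ex14D. Klf2, which belongs to the pluripotency network of ES cells, had 110 and 19.8 CPM in control and 9.08 and 15.9 CPM in ex14D. Their log2 fold changes were -2.64, -2.61 and -2.29 with both control libraries and -0.66, -1.16 and -0.73 without control replicate 1, and none of the 3 then passed the threshold. They also did not pass with DESeq2. Of the 101 lower promoters, 8 had control libraries more than 2-fold apart, with replicate 1 the higher at each.

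Higher H3K27me3 relative to other promoters was found at 5 lost promoters, all with a peak in both ex14D libraries. Hdac2, a histone deacetylase, had 38.1 and 57.4 CPM in control and 91.7 and 108 CPM in ex14D (log2 fold change 1.03 ± 0.29 SE, adjusted p = 0.024). Rabl6, a Rab-like GTPase, had 57.9 and 89.4 CPM in control and 145 and 163 CPM in ex14D (1.03 ± 0.26, adjusted p = 0.010). The ex14D values at both genes were above both control values. Zfp608 had a log2 fold change of 0.80, the microRNA gene Mir483 of 0.75 and the interleukin 4 receptor gene Il4ra of 0.73. These 5 calls were not stable. DESeq2 kept 1 of them, and library totals as the scaling kept 0. Every fold change stayed positive in the fits without 1 of the 4 libraries. The control and ex14D values did not overlap at these 5 promoters, so leaving out 1 library could hardly turn the sign.

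**Figure D4:**
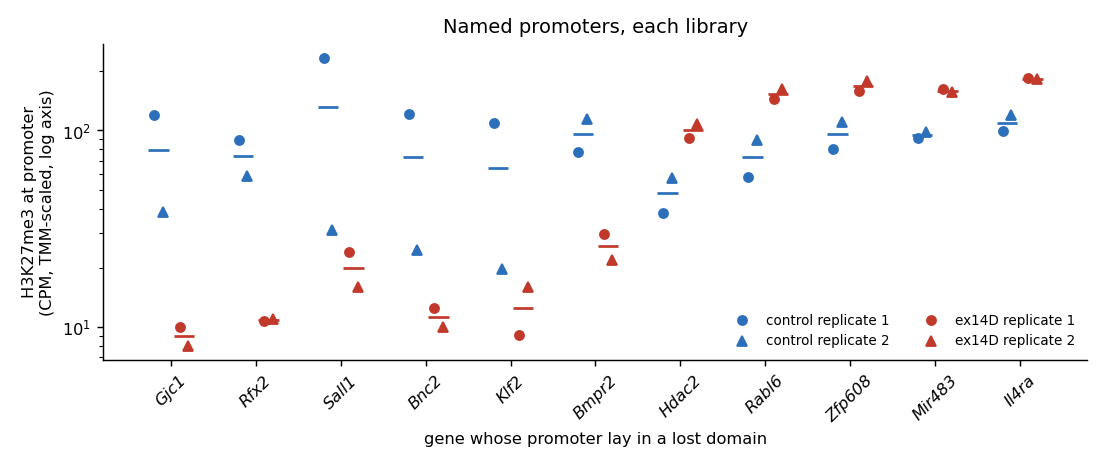
H3K27me3 at the promoters of 11 genes in lost domains, in CPM after TMM scaling on a log axis. Circles and triangles are replicates 1 and 2, blue control and red ex14D, and horizontal lines are means of 2 libraries; Sall1, Bnc2 and Klf2 have a control replicate 1 (233, 122 and 110 CPM) far above replicate 2.

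Further lost promoters were taken by the fold enrichment of their control peaks. This value did not follow the reads. Over promoters with a peak of their own, its rank correlation (Spearman's rho, across peaks of one library) with the read count of the same library was 0.057 to 0.091, while peak width had 0.720 to 0.741. It was therefore not read as a strength. Of the 8 lost promoters with the highest such value and no ex14D peak, 4 were lower, Selo, Snx18 (an endocytic sorting nexin), Rufy3 and Gm38426. Of all 70 tested lost promoters without an ex14D peak, 35 (50%) were lower, and of all promoters tested 3.19%. At Rufy3, a gene of axon growth, 39.6 and 63.1 CPM in control became 16.5 and 15.9 CPM in ex14D (log2 fold change -1.68 ± 0.36 SE, adjusted p = 0.0025), a call that was lost in each fit without 1 library other than control replicate 1. At Gm38426 it was 56.4 and 35.8 CPM and then 12.4 and 10.9 CPM. Map3k9, Erc2, Tysnd1 and Ptpra did not pass, with log2 fold changes of -0.90, -1.01, -0.84 and -0.87. Of all 547 tested lost promoters with a peak in both ex14D libraries, 35 (6.40%) were lower and 5 (0.91%) were higher. Of the 8 with the highest value and a peak in both ex14D libraries, 0 passed with edgeR and 3 had an unadjusted p below 0.05. Their log2 fold changes lay between -0.71 at Adamts14 and 0.52 at Hrasls, with Cpxm1, 4632428C04Rik, Epb41l1, 4930520O04Rik, Itga4 and Iqsec3 between them. Hrasls had 104 and 95.1 CPM in control and 140 and 143 CPM in ex14D.

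The widest lost domains over a promoter lay at Cdkn2b (11 kb, chr4:89300001-89311000), which encodes a cyclin-dependent kinase inhibitor, at the repressor gene Bcl6 (10 kb, chr16:23980001-23990000) and, at 6 kb, at Mef2d, a transcription factor of muscle and neurons, and at Slc17a7, a vesicular glutamate transporter. All 4 had peaks in both ex14D libraries. Slc17a7 was among the most marked lost promoters, with 197 and 203 CPM in control and 162 and 200 CPM in ex14D, and ex14D replicate 2 lay within the control range. Cdkn2b had 24.4 and 72.5 CPM in control and 43.8 and 33.8 CPM in ex14D, so that its ex14D values lay within the control range. None of these 4 passed the test, and 0 had an unadjusted p below 0.05. The list cuts through a tie at 6 kb. The domain over Zfp608, named above among the higher promoters, is also 6 kb wide (log2 fold change 0.80, adjusted p = 0.036, edgeR).

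Few of the classical developmental targets of PRC2 lay in lost domains. Over all genes, 20.3% of the 3743 promoters in a marked domain lay in a lost one. For homeobox genes this was 2 of 154 (1.30%), for Wnt pathway genes 1 of 41, for FGF and Hedgehog genes 1 of 24 and for transcription factors of the Fox, Sox, Pax, Gata, T-box and like zinc finger families 7 of 117 (5.98%). Basic helix-loop-helix factors had 6 of 51, genes of Notch, ephrin and axon guidance 7 of 60, ion channels 16 of 121, receptors coupled to G proteins 16 of 108, TGF-beta and BMP genes 6 of 38, solute carriers 12 of 75 and Polycomb genes 1 of 8. Cadherins and matrix genes, at 31 of 124 (25%), were the only list above the share of all genes. The 12 lists held 14% of lost and 27.3% of kept promoters. These are counts without a test. Lost domains were narrower than kept ones, and the part of width in these shares was not tested.

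**Figure D5:**
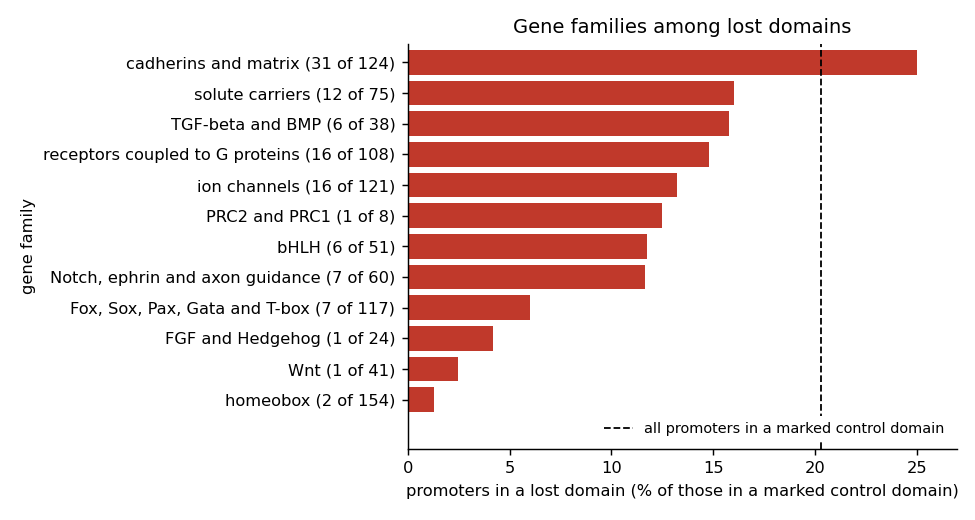
Share of promoters in a marked control domain that lay in a lost one (horizontal axis, %), for 12 gene families with the counts in brackets. The dashed line is the share over all genes, 20.3%, and homeobox genes have the lowest bar at 1.30%.

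The 2 homeobox genes were Dbx2, a patterning gene of the spinal cord, and Cux2, a gene of upper cortical neurons. Dbx2 had 113 and 145 CPM in control and 165 and 116 CPM in ex14D, which overlap. Cux2 had 76.2 and 70.6 CPM in control and 42.1 and 37.8 CPM in ex14D and did not pass (log2 fold change -0.87 ± 0.31 SE, adjusted p = 0.082). Counts of lower promoters in a list are to be read beside the 14% of all tested lost promoters and 3.19% of all promoters tested. No list was tested against these shares. Of 6 helix-loop-helix genes, 1 was lower, Scx. It was not among those taken by control level and is named here after its values were seen. Heyl, a Notch effector, had 239 and 189 CPM in control and 205 and 200 CPM in ex14D, the ex14D values lying within the control range. Atoh7, Hes3 and Id1 had log2 fold changes of -0.31, -0.69 and -0.81 and did not pass. In the Fox, Sox and related list 3 of 7 were lower, Sall1, Klf2 and, named after its values were seen, Foxo1. Foxn4 and Foxj1 had log2 fold changes of -0.17 and -0.12, and Dmrtb1 of 0.48.

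Among the lists of signalling genes 1 lost promoter was lower and 0 were higher with edgeR, where 14% of all tested lost promoters were lower. The lower one was in the TGF-beta and BMP list, where 1 of 6 was lower, Bmpr2, the type II receptor of BMP. Its promoter (domain chr1:59762001-59765000) had 77.7 and 115 CPM in control and 29.7 and 21.9 CPM in ex14D (log2 fold change -1.90 ± 0.33 SE, adjusted p = 0.00027). Both control libraries were above both ex14D libraries, and a peak was called in 1 of the ex14D libraries. Without control replicate 2 it did not pass (adjusted p = 0.064, edgeR). The ligands Gdf11, Inhba and Tgfb3 had -0.42, 0.48 and -0.03 and did not pass. Wif1, a secreted Wnt inhibitor, had 76.2 and 95.1 CPM in control and 62.8 and 47.8 CPM in ex14D and did not pass, and neither did Spry4, an inhibitor of FGF signalling, at -0.93. Among 7 genes of Notch, ephrin and axon guidance 0 passed with edgeR. Of the 4 most marked, the netrin receptor Dcc and the ephrin receptor Epha3 had 0.55 and 0.70, and the semaphorins Sema4g and Sema3c -0.19 and -0.11. At an unadjusted p below 0.05 there were 2 among these 4.

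The remaining lists were of channels, receptors, transporters, adhesion and matrix genes and Polycomb genes. Beside their counts stands the share of all tested lost promoters that were lower, 14%, and no list was tested against it. Of 16 ion channels 3 were lower. The ATP-gated channel P2rx2 had 145 and 104 CPM in control and 76.0 and 51.7 CPM in ex14D (log2 fold change -0.94 ± 0.28 SE, adjusted p = 0.031) but did not pass in any of the 4 fits without 1 library, and Kcnab2, named after its values were seen, was another. The potassium channels Kcnj6 and Kcnj10 and the cation channel Trpc4 had 0.11, 0.18 and 0.08. Of 16 receptors coupled to G proteins 2 were lower, Gpr137c and Celsr3, again named after their values were seen, whereas Grm5, S1pr3, Npy5r and Gpr162 had values from 0.06 to 0.43. Of 12 solute carriers 2 were lower, Slc39a6 and Slc12a2, named in the same way. The dopamine transporter Slc6a3 had 0.04 and the amino acid transporters Slc7a4 and Slc7a6 -0.48 and -0.28. Of the 31 cadherin and matrix genes 0 were lower or higher, the median was -0.07, and 30 lay in a domain with a peak in both ex14D libraries. Mmp28, Adamtsl5, Lamc3 and the collagen gene Col9a3, the most marked of them, had -0.44, -0.15, 0.02 and -0.55, and 1 of these 4 had an unadjusted p below 0.05. The list includes clustered protocadherins, whose similar sequences can share reads. Phc2, a subunit of PRC1 and the one Polycomb gene, had 71.6 and 78.1 CPM in control and 62.8 and 56.7 CPM in ex14D, and did not pass (-0.33 ± 0.29 SE).

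EZH2 reads were counted over whole genes and give little on the domains themselves. Of the 759 genes with a lost promoter, 333 are listed at 0 in all 4 EZH2 libraries, as are 1192 of the 2984 with a kept promoter. A 0 is not read as absence of EZH2, since each of these promoters lay in an EZH2 domain of control replicate 1. EZH2 CPM are scaled by the counted reads of a library alone, without TMM. The other 426 genes with a lost promoter had a median of 39.0 and 39.3 CPM in control and 36.6 and 37.5 CPM in ex14D. Their median ratio of ex14D to control was 0.986. For 1792 genes with a kept promoter, the medians were 75.9 and 76.2 CPM in control and 62.4 and 54.1 CPM in ex14D, with a median ratio of 0.830. No test is given, because the EZH2 libraries chose the domains.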

How the data were processed

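H3K27me3 and EZH2 ChIP-seq of control and ex14D-Ezh2 ES cells was analysed from the deposited files. The genotype and antibody in the labels gave the groups. Per the labels and methods, the authors aligned reads to mm10 with Bowtie, called MACS2 broad peaks and hiddenDomains domains for each library, and counted reads with htseq-count. The submitters' processing notes name Trimmomatic, Bowtie2, MACS2, ChIPseeker and HTSeq. The deposited counts are whole reads without normalization, in 1 kb promoter windows for H3K27me3 and input and over genes for EZH2. Reads assigned to no single gene (98.1% of input, 92.4% to 94.4% of H3K27me3 and 55.7% to 56.1% of EZH2 reads) stayed out of library sizes and tests. For each peak, the authors deposited the fold enrichment and −log10 p- and q-values given by MACS2. Domain files hold positions only. The 4 H3K27me3 domain files run past the ends of chromosomes of this build and were not used here. Which control MACS2 was given is not given in the sources used here.

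Lost domains followed the rule given in the report. The domains and gene lists were chosen with earlier results of these data known. Of 24500 genes, 22483 were placed on chromosomes 1 to 19 of GRCm38 (mm10) by their RefSeq symbol and 743 by an older symbol, and promoters were 1000 bp around the 5′ most curated start, which may differ from the window the authors counted. Counts were compared with edgeR 4.0.16 in R 4.3.3 (TMM, filterByExpr, quasi-likelihood F test, Benjamini-Hochberg, threshold 0.05). Standard errors are the log2 fold change over the square root of F. In simulated counts of this comparison (13608 promoters tested, 200 changed), the test found 21% of 2-fold and 73% of 4-fold changes, with 6% false calls. The changed promoters were drawn from all those tested, with a common dispersion. DESeq2 1.42.0, other scalings, overlaps and peak limits, a replicate block and each library left out in turn were alternatives. Intervals are exact 95% binomial and cover counting error only. Named genes were promoters in lost domains: the 8 with the highest mean control peak fold and no ex14D peak, the 8 with peaks in both, the 4 widest, the 5 largest falls and rises past the threshold, up to 4 per family by control CPM, and the 3 nearest the limit of the rule on either side. None of the genes the study tested by ChIP-PCR was among them. The name of 1 gene that passed the test and the sequence of 1 domain are not reported here. Python 3.11.15, scipy 1.17.1 and pysam 0.24.0 were used.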

Additional observations from a re-analysis of the deposited data

How the results depend on the processing

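Counts of lost domains and shares with a peak in both ex14D libraries moved with the peak limit and the overlap. With peaks of −log10 q of at least 3, a value that did not follow the reads, 486 domains were lost, and 58.0% of lost and 82.8% of kept domains had the peak. With at least 50% of a domain overlapped in the rule, the shares were 86.9% and 98.7%, and with ex14D peaks covering at least 50%, 61.2% and 93.3%. Leaving out 1 library gave 1178 to 2053 lost domains, the highest without control EZH2 replicate 1, whose domains were then replaced by those of replicate 2, and shares of 75.3% to 92.7% for lost and 97.6% to 99.4% for kept domains. In each of these settings the share of lost domains stayed below that of kept ones.

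At lost promoters, scaling by library size only gave 294 lower and 0 higher, the median moving to -0.78 on the log2 scale, and 14.6% of all promoters tested were then lower, against 3.19% with TMM. The number of higher promoters was 1 with DESeq2, 2 with no filter on low counts and 8 with the gene of the nearest start. Leaving out 1 library gave 20 to 123 lower and 0 higher (8 to 44 at an unadjusted p below 0.05, and 1 by DESeq2 on all 4 libraries), medians of -0.46 to -0.22 and log2 ratios of lost to kept reads of -1.03 to -0.80, around -0.91 with all 4. The libraries share only a number: the deviations of same-numbered libraries correlated at -0.10. With the number as a replicate block, 90 promoters were lower and 2 higher, and with the numbers of the ex14D libraries exchanged, a pairing chosen after seeing the data, 152 were lower and 17 higher. The cause of these changes was not tested. In counts simulated at these depths with a common dispersion, 21% of 2-fold changes were found among promoters drawn from all those tested. Lost promoters had higher control levels than these, with medians of 60.9 and 74.4 CPM against 19.8 and 18.8 CPM. The 21% is therefore not a value for lost promoters. A promoter that did not pass may still have changed.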
